A study of Mus musculus with 3 samples.

Results

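Granzymes are serine proteases that cytotoxic lymphocytes store in granules, and perforin is the pore-forming protein that lets them enter a target cell. The 7 genes followed here were the 6 granzyme genes *Gzma*, *Gzmb*, *Gzmc*, *Gzmf*, *Gzmk* and *Gzmm* and the perforin gene *Prf1*, chosen by name as the family of cytotoxic granule effectors and all present among the 18029 genes of the RNA count table. Donor T cells use this granule pathway, beside Fas ligand, to kill host cells in graft-versus-host disease (GVHD), and CSA (cyclosporine), a calcineurin inhibitor, keeps NFAT transcription factors from entering the nucleus after T cell receptor signalling. The data came from splenic T cells of B6D2F1 mice on day 7 after transplantation of B6 bone marrow with B6 T cells and a small number of TEa cells, CD4+ T cells with a transgenic receptor for an alloantigen. All recipients carried the same graft, and treatment was saline or CSA, the latter at 5 or 50 mg/kg, from day 0 to day 6, with 6 mice per group pooled by 2 into 3 hashtagged pools. No healthy or untransplanted group was analysed, so saline is untreated GVHD and not a resting state. The age and sex of these mice were not given in the sources used here.

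The 3 pools of a group, with sorted CD4+ and CD8+ T cells mixed in equal parts, went into 1 10x 5′ capture, so capture and treatment cannot be told apart. The tables held 21204 cells, 10371 CD4+ and 10833 CD8+, and the 280 TEa cells were left out of the sums unless named. UMIs (molecules counted once by their barcode) were summed per pool and lineage, giving 3994968 to 7592334 UMIs from 875 to 1479 CD4+ cells and 4392100 to 11454636 from 692 to 1615 CD8+ cells of a pool. The median UMIs per cell were 3097, 4396 and 5979.5 in CD4+ and 4108, 6122 and 7183 in CD8+ T cells with saline, 5 and 50 mg/kg. Levels are CPM (the UMIs of a gene scaled to a common library size), divided by the TMM factor of the pool unless stated. TMM sets the typical gene to no change, and scaling by total UMIs in its place moved the median log2 change of all genes by -0.37 and -0.45 in CD4+ and by -0.43 and -0.53 in CD8+ T cells at 5 and 50 mg/kg. Directions that turn under that scaling are named where they occur. In the deposited tables *Cd8a* was at 0 UMIs in every CD4+ cell and *Cd4* at 0 in every CD8+ cell. There were 218 barcodes found in more than 1 capture, and 1080 cells had a second hashtag of at least 0.5 times the first, without which the members called in each lineage were equally many.

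The members lie at 4 places in the mouse genome (mm10). *Prf1* (chr10:61297833-61304680, plus strand) and *Gzmm* (chr10:79689020-79695261, plus strand) are on chromosome 10, *Gzma* (chr13:113093825-113100981) and *Gzmk* (chr13:113171608-113225908) are neighbours on the minus strand of chromosome 13, 70626 bases apart, and *Gzmf* (chr14:56205263-56211417), *Gzmc* (chr14:56231441-56234656) and *Gzmb* (chr14:56258838-56262260) stand in a row on the minus strand of chromosome 14. That row also holds *Gzme*, *Gzmd*, *Gzmg* and *Gzmn*, and the transcripts of *Gzmc* and *Gzmf* share 4.14% and 7.36% of their words of 50 bases with *Gzmd*, *Gzme* or *Gzmg*, so that their counts are less certain. *Gzma*, *Gzmb*, *Gzmk*, *Gzmm* and *Prf1* shared no such word with another gene. The 250 bases before the RefSeq start (GRCm38.p6, 5′ to 3′ on the gene's strand) are shown for the 5 members whose changes are described at most length, because CSA acts on transcription factors that bind such stretches. Capitals mark matches, on either strand, to the letters TGGAAA (the core of an NFAT site), TGANTCA (AP-1), TGTGGT (Runx), GGTGTGA (T-box) or GACGTCA (a cyclic AMP response element).
Prf1, chr10:61297586-61297835: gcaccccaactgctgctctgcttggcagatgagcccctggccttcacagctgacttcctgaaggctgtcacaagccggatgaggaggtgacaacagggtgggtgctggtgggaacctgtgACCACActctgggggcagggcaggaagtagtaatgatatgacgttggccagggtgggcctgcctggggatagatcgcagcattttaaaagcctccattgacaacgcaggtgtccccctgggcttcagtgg
Gzmb, chr14:56262335-56262584: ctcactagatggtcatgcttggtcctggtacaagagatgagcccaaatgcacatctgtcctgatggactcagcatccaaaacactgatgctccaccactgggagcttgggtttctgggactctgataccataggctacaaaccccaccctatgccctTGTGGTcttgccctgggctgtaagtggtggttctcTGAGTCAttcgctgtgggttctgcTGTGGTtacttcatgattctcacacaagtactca
Gzma, chr13:113100982-113101231: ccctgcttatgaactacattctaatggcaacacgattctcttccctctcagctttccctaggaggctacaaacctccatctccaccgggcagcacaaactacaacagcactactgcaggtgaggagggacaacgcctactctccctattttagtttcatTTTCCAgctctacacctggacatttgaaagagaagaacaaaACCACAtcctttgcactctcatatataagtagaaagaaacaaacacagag
Gzmm, chr10:79688770-79689019: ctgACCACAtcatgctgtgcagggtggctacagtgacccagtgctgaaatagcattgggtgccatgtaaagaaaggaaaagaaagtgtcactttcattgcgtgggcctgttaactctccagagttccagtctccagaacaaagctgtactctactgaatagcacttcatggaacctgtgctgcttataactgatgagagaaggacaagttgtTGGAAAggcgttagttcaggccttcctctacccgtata
Gzmc, chr14:56234658-56234907: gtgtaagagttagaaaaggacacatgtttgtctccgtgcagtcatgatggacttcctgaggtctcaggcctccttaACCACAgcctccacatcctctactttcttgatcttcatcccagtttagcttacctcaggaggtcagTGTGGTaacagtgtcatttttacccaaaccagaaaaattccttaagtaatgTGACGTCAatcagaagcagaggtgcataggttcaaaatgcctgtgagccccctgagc

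Such short matches are frequent. Of 32851 windows of this length, 18.6% held the NFAT core, 6.75% the AP-1 letters, 14.05% the Runx letters, 3.33% the T-box letters and 2.78% the response element. The NFAT core stood 91 bases before the *Gzma* start and 38 bases before that of *Gzmm*, and no window of the other members held it. *Gzmb* had the AP-1 letters 58 bases before its start and Runx letters at 34 and 93 bases. *Gzmc* and *Gzmf* each held 2 Runx matches and the palindrome around GACGTCA, which matches on both strands, 57 bases before the start of *Gzmc* and 82 before that of *Gzmf*. A Runx match also stood at 130 bases in *Prf1*, 50 in *Gzma* and 247 in *Gzmm*, and the *Gzmk* window, whose RefSeq start lies inside the longer annotated gene, held only the T-box letters, 75 bases before it. A match is a run of letters and says nothing of whether a factor was bound in these cells.

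In CD8+ T cells *Prf1* fell at both doses, though its level at 5 mg/kg was above that of saline (0.23 on the log2 scale) once the cluster shares of each pool were set to the mean of the saline pools. *Gzmm* and, at 50 mg/kg, *Gzmc* rose there. *Gzmb* of CD8+ T cells was near its saline level with TMM but lower with scaling by total UMIs. Among CD4+ T cells *Gzmb* rose while *Gzma*, *Gzmk* and *Prf1* fell at 50 mg/kg. In CPM, the CD4+ levels of *Gzma*, *Gzmk* and *Prf1* with saline were not distinguished from those of CD4+ naive T cells, as given below. A member was called at an adjusted p under 0.05 in edgeR's quasi-likelihood test over all genes. Of the 6 members tested in CD4+ T cells, 3 were called at 5 mg/kg (2 higher, 1 lower) where 51.7% of all tested genes were, and 6 of 6 at 50 mg/kg (3 higher, 3 lower) where 70.5% were. Of the 7 in CD8+ T cells, 4 were called at 5 mg/kg (2 higher, 2 lower) against 60.2% of genes, and 5 of 7 at 50 mg/kg (3 higher, 2 lower) against 74.0%. Between the doses, 5 of 6 were called in CD4+ (2 higher and 3 lower at 50 mg/kg, 41.2% of genes) and 4 of 7 in CD8+ T cells (2 higher, 2 lower, 41.0% of genes). Most of these shares lie close to or not far above those of all genes. Between the doses in CD4+ T cells, 5 of 6 is well above 41.2%, but on 6 members. No result about the family was read from the number of calls. With scaling by total UMIs the members called at the lower dose were 1 higher and 2 lower in CD4+ and 2 higher and 3 lower in CD8+ T cells, and at the higher dose 2 higher and 3 lower in CD4+ and 2 higher and 4 lower in CD8+ T cells. The pools of a group did not overlap those of saline for 1 and 5 members in CD4+ and for 4 and 4 in CD8+ T cells at 5 and 50 mg/kg, against 57.7%, 72.7%, 66.04% and 75.8% of all genes. *Gzmf* in CD4+ T cells was too low to test, and in these sums fewer cells with a transcript and less transcript per cell cannot be told apart.

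**Figure D1:**
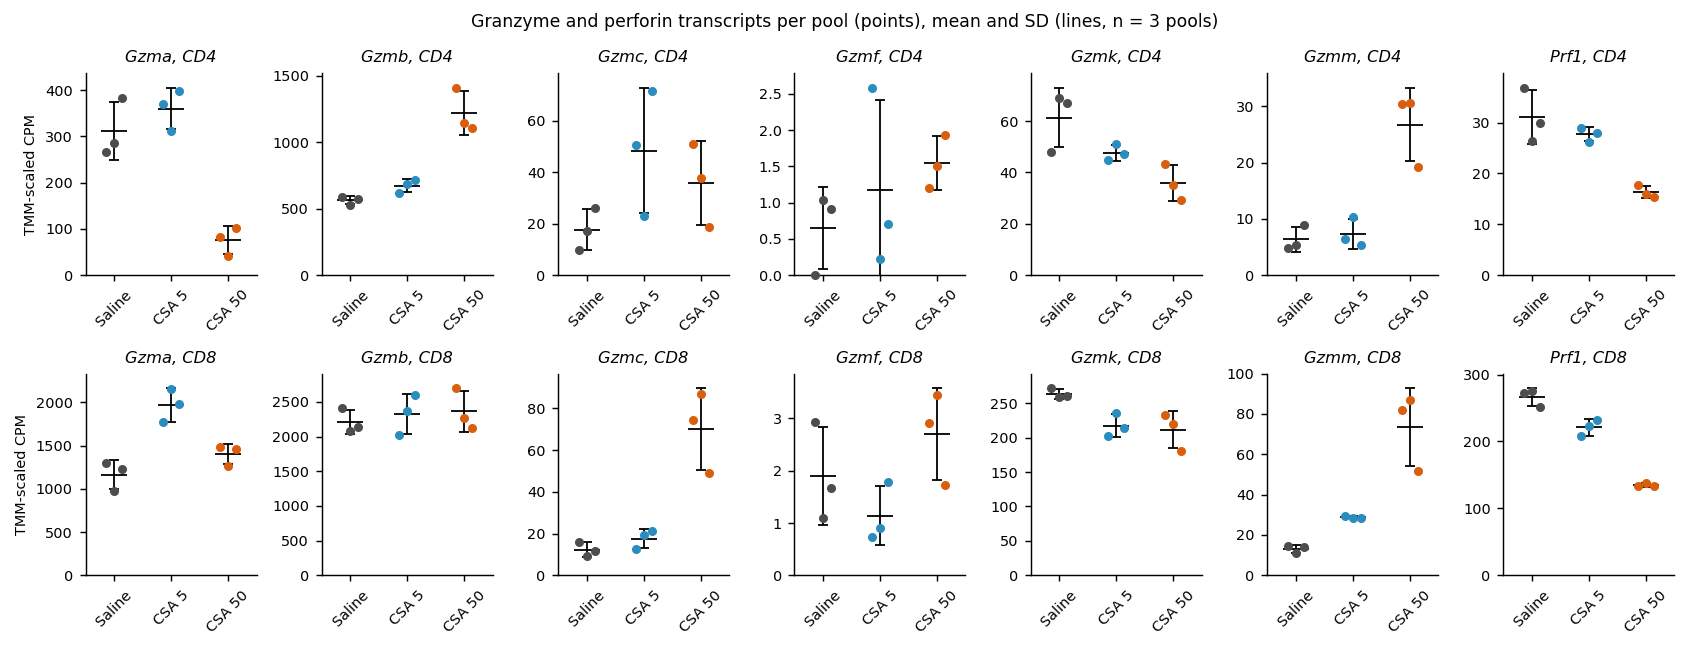
TMM-scaled CPM of the 7 members (columns) in each pool (points) of CD4+ (top) and CD8+ T cells (bottom), with the mean and SD of the 3 pools of a group; each panel has its own axis from 0. *Prf1* in CD8+ T cells lay between 133 and 138 at 50 mg/kg against 251 to 275 with saline, and *Gzma* in CD4+ T cells lay between 41.5 and 102 at 50 mg/kg against 267 to 383 with saline.

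*Prf1*, the pore former, was at 272, 275 and 251 scaled CPM in the saline pools of CD8+ T cells, at 208, 224 and 232 at 5 mg/kg and at 133, 138 and 134 at 50 mg/kg. The 3 groups did not overlap. The log2 change in edgeR's test was -0.26 (SE 0.05, adjusted p = 1.68e-04) at 5 mg/kg, -0.98 (SE 0.05, adjusted p = 4.35e-12) at 50 mg/kg and -0.72 (SE 0.05, adjusted p = 5.60e-09) between the doses. The change at 5 mg/kg turned to 0.23 with fixed cluster shares. The CD4+ pools held 36.8, 26.3 and 30.01 with saline, 28.9, 26.2 and 28.1 at the lower and 17.7, 15.997 and 15.3 at the higher dose. The saline and 5 mg/kg pools overlapped and every 50 mg/kg pool lay below both, with log2 changes of -0.15 (SE 0.11, adjusted p = 0.291) at 5 mg/kg and -0.91 (SE 0.12, adjusted p = 6.31e-07) at 50 mg/kg from the same edgeR test. These CD4+ levels rest on 176, 178 and 197 UMIs in the saline pools, and they were not above those of CD4+ naive T cells, as given below.

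*Gzmb*, which cleaves caspases and Bid in target cells, was at 589, 527 and 573 scaled CPM in saline CD4+ T cells, 620.2, 684 and 715 at 5 mg/kg and 1405, 1140.3 and 1108 at 50 mg/kg. No group overlapped another. It rose in CD4+ T cells by 1.11 (SE 0.07, adjusted p = 4.76e-12) at 50 mg/kg on the log2 scale in edgeR's test, and by 0.68 with scaling by total UMIs. The smaller rise at 5 mg/kg, 0.26 (SE 0.07, adjusted p = 0.00333) in edgeR, became -0.10 (adjusted p = 0.222) with scaling by total UMIs and 0.04 in cells outside the cycling clusters, where 1 of 6 members was called at that dose. The CD8+ pools of saline held 2410.1, 2081 and 2139, the 5 mg/kg pools 2018, 2363 and 2602 and the 50 mg/kg pools 2695, 2267 and 2126. These 3 groups overlapped throughout, and the log2 changes of 0.08 (SE 0.08, adjusted p = 0.447) and 0.10 (SE 0.08, adjusted p = 0.306) at 5 and 50 mg/kg were not called in edgeR, but with scaling by total UMIs they were -0.35 and -0.43 and both called (adjusted p = 0.00158 and 1.66e-04). Outside the cycling clusters the change at 50 mg/kg was 0.37 (adjusted p = 0.00114) in edgeR, so the direction of *Gzmb* in CD8+ T cells depended on the scaling and its call on the cells counted.

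*Gzma*, a tryptase that cleaves gasdermin B in human cells and acts without caspases, went apart in the lineages. In CD4+ T cells it was at 267, 285 and 383 scaled CPM with saline, 370.2, 312 and 398 at the lower and 82.9, 41.5 and 102 at the higher dose. The first groups overlapped and the 50 mg/kg pools lay below all others, with a log2 change of -2.04 (SE 0.18, adjusted p = 1.46e-09) at 50 mg/kg and 0.21 (SE 0.15, adjusted p = 0.278) at 5 mg/kg in edgeR. With no TMM factor *Gzma* at 5 mg/kg was below saline in the mean, at 338 ± 39.5 against 375 ± 76.4 CPM (SD, n = 3), so that direction turned. *Cd8b1* is a CD8 coreceptor chain that CD4+ T cells should lack. In these cells it was at 148 ± 6.15 CPM (SD, n = 3, not TMM-scaled) with saline, 92.5 ± 5.297 at the lower and 23.2 ± 2.496 at the higher dose. *Cd8b1* was thus lower at both doses, whereas *Gzma* at 5 mg/kg overlapped saline. In CD8+ T cells *Cd8b1* went from 1306 ± 54.9 to 1445 ± 20.1 and 2702 ± 136 CPM. The other CD8 marker, *Cd8a*, was at 0 in the CD4+ cells of all 3 groups. The part that RNA of CD8+ cells had in the fall of *Gzma* was not tested. The CD8+ pools had *Gzma* at 1297, 971 and 1229 scaled CPM with saline, 1772, 2155 and 1978 at the lower and 1482, 1267 and 1463 at the higher dose. All 5 mg/kg pools lay above the others, a log2 change of 0.76 (SE 0.09, adjusted p = 6.25e-07) in edgeR. At 50 mg/kg the pools overlapped those of saline, and the change of 0.27 (SE 0.09, adjusted p = 0.00914) in edgeR turned to -0.26 (adjusted p = 0.01) with scaling by total UMIs.

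*Gzmk*, a tryptase that marks early effector and memory CD8+ T cells, was at 271, 258 and 261 scaled CPM in saline CD8+ T cells, 202, 235 and 214 at 5 mg/kg and 233, 219 and 181 at 50 mg/kg. Both doses lay below saline without overlap and overlapped each other, and the log2 changes were -0.28 (SE 0.07, adjusted p = 0.00297) and -0.32 (SE 0.07, adjusted p = 4.68e-04) in edgeR. Its CD4+ levels were 48.1, 68.8 and 67.03, 44.9, 50.96 and 47.2 and 43.2, 34.99 and 29.2 in the same order. Only the 50 mg/kg pools lay below all saline pools, with log2 changes of -0.38 (SE 0.12, adjusted p = 0.0121) and -0.80 (SE 0.12, adjusted p = 5.05e-06) in edgeR. With the cluster shares of each pool set to the mean of the saline pools, the log2 ratio of the scaled levels at 5 mg/kg was 0.11 for *Gzmk* in CD4+ and 0.20 in CD8+ T cells, so that the direction at that dose turned.

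*Gzmm*, which cleaves after methionine and leucine and is known best from natural killer (NK) cells, was at 14.5, 11.04 and 14.04 scaled CPM in saline CD8+ T cells, 29.3, 28.5 and 28.6 at 5 mg/kg and 81.7, 87.1 and 51.6 at 50 mg/kg. No group overlapped another, and it rose by 1.13 (SE 0.19, adjusted p = 5.78e-05) and 2.47 (SE 0.16, adjusted p = 1.68e-10) on the log2 scale in edgeR, with levels at 5 mg/kg that were near those of CD8+ naive T cells, as given below. The CD4+ pools held 4.81, 5.33 and 8.84, 6.44, 10.4 and 5.26 and 30.4, 30.5 and 19.2, so that the lower dose overlapped saline and the higher lay above both, a log2 change of 2.04 (SE 0.22, adjusted p = 4.43e-08) in edgeR on 23, 36 and 58 UMIs in the saline pools. The sum of 6 NK cell markers (*Ncr1*, *Klrb1c*, *Klra4*, *Klra8*, *Klre1* and *Tyrobp*) lay at 25.6 to 38.5 CPM in saline, 31.6 to 48.98 at 5 mg/kg and 28.8 to 46.5 at 50 mg/kg in CD8+ T cells and at 26.03 to 31.004, 20.3 to 37.96 and 10.999 to 30.4 in CD4+ T cells, ranges that overlapped between the groups. *Klra4* and *Klra8* were at 0 in both lineages in saline and at 5 mg/kg, and *Ncr1* was at 0 there in CD4+ T cells; no NK marker was at 0 throughout the 50 mg/kg pools.

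*Gzmc* is 1 of the granzymes that follow *Gzmb* on chromosome 14 and appear in strongly stimulated killer cells. In CD8+ T cells it was at 16.1, 9.24 and 11.6 scaled CPM with saline, 12.6, 19.1 and 21.1 at the lower and 74.2, 87.1 and 48.9 at the higher dose. The 50 mg/kg pools lay above all others, a log2 change of 2.51 (SE 0.20, adjusted p = 2.74e-09) in edgeR, and the change at 5 mg/kg was 0.59 (SE 0.25, adjusted p = 0.0534). The CD4+ pools spread widely, at 9.83, 17.2 and 26.05 with saline, 50.5, 22.998 and 71.4 at the lower and 50.9, 37.8 and 18.5 at the higher dose, and both doses overlapped saline. The log2 changes of 1.43 (SE 0.34, adjusted p = 0.00133) and 0.94 (SE 0.35, adjusted p = 0.0198) in edgeR came with 1.02 (adjusted p = 0.119) at 50 mg/kg in DESeq2. *Gzmf* was near the limit of the data, with 24, 11 and 16 UMIs in the CD8+ saline pools, 3, 5 and 14 at 5 mg/kg and 21, 26 and 17 at 50 mg/kg, and no change of it was called. A CD4+ pool had between 0 and 13 UMIs of it.

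Markers of other cell types were summed in the same pools, in CPM with no TMM factor. The 5 B cell markers lay at 155 to 169 CPM with saline and 332 to 363 at 50 mg/kg in CD8+ T cells, and at 174 to 189 and 255 to 270.4 in CD4+ T cells. The 3 plasma cell markers lay at 1.296 to 5.92 with saline, 0.356 to 59.9 at the lower and 182 to 326 at the higher dose in CD8+ T cells, and in CD4+ T cells at 0.2503 to 1.102 with saline and 2.37 to 40.3 at 50 mg/kg. The 4 erythroid markers lay at 3.63 to 17.2 and 23.1 to 45.6 in CD8+ and at 3.21 to 14.02 and 26.1 to 34.8 in CD4+ T cells. These sums were thus higher at 50 mg/kg, without overlap with saline, while the B cell marker *Ms4a1* was at 0 in CD4+ T cells at 50 mg/kg. The 6 myeloid markers overlapped between saline and 50 mg/kg in both lineages, the 4 markers of plasmacytoid dendritic cells were lower at 50 mg/kg in CD8+ T cells (145 to 189 against 212 to 219.6), and the 3 of mast cells or basophils did not exceed 0.262 CPM. The part of such cells or their RNA in the changes of the members was not tested.

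**Figure D2:**
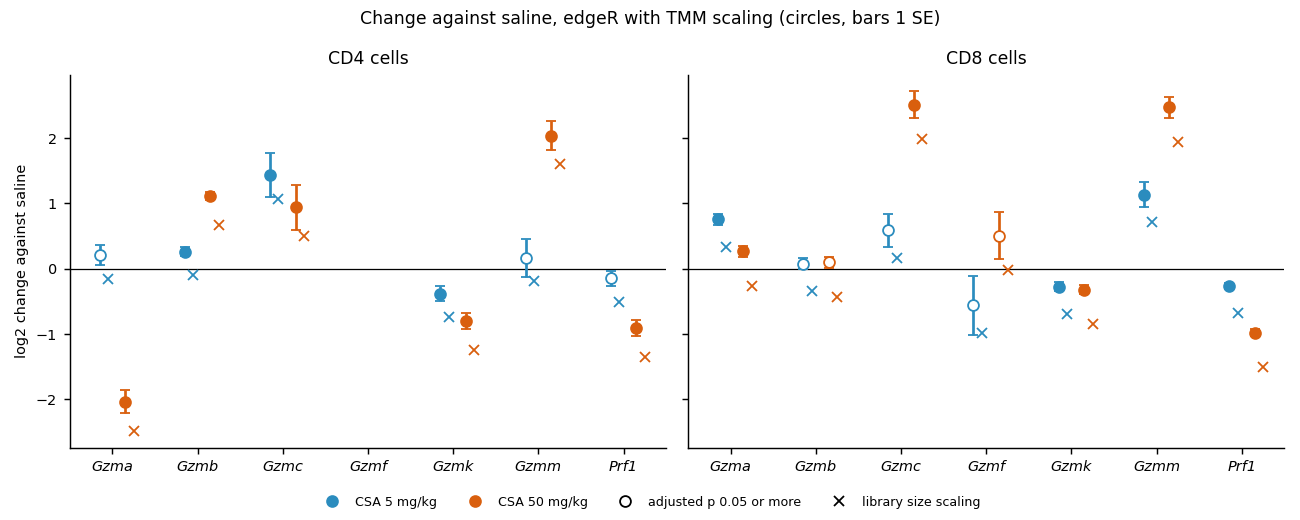
Log2 change against saline of each member in CD4+ (left) and CD8+ T cells (right) at 5 mg/kg (blue) and 50 mg/kg (orange), from edgeR with TMM scaling (circles, bars 1 SE; open where not called), and with scaling by total UMIs (crosses). *Gzma* and *Gzmb* at 50 mg/kg in CD8+ T cells lie above 0 as circles (0.27 and 0.10) and below 0 as crosses (-0.26 and -0.43), while *Gzmm* is above 0 and *Prf1* below 0 on both scales.

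A measure that needs no scaling between pools is the make-up of the granzyme UMIs, the share of each granzyme in the UMIs of all 6 in a pool. In CD4+ T cells *Gzma* made up 32.2% ± 3.64 of them (SD, n = 3) with saline, 31.6% ± 2.52 at the lower and 5.45% ± 2.404 at the higher dose. *Gzmb* made up 58.8% ± 5.05, 59.2% ± 3.57 and 87.4% ± 1.05, and *Gzmk* 6.39% ± 1.19, 4.21% ± 0.462 and 2.56% ± 0.241. The 50 mg/kg pools stood apart from all others in each of these shares, and those of *Gzma* and *Gzmb* overlapped between saline and 5 mg/kg. In CD8+ T cells the share of *Gzma* was 31.7% ± 2.29 with saline, 43.2% ± 2.12 at the lower and 34.2% ± 3.14 at the higher dose, so that only the lower dose stood apart. There *Gzmc* went from 0.332% ± 0.0629 to 0.382% ± 0.0641 and 1.701% ± 0.482, and *Gzmm* from 0.359% ± 0.0264 to 0.637% ± 0.0772 and 1.78% ± 0.442. The ratio of *Gzmb* to *Prf1* UMIs in CD8+ T cells was 8.87, 7.56 and 8.52 in the saline pools, 9.72, 10.6 and 11.2 at 5 mg/kg and 20.3, 16.5 and 15.9 at 50 mg/kg, with no overlap between groups. The CD4+ ratio was 16.01, 20 and 19.1, 21.5, 26.2 and 25.5 and 79.3, 71.3 and 72.2, again apart at every dose. *Prf1* of CD4+ T cells was not above that of CD4+ naive cells, as given below. The CD4+ ratio is therefore not read as a balance of these genes within CD4+ T cells. *Gzma* of CD4+ T cells with saline and 5 mg/kg was not distinguished in CPM from naive cells either, which limits its CD4+ shares.

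**Figure D3:**
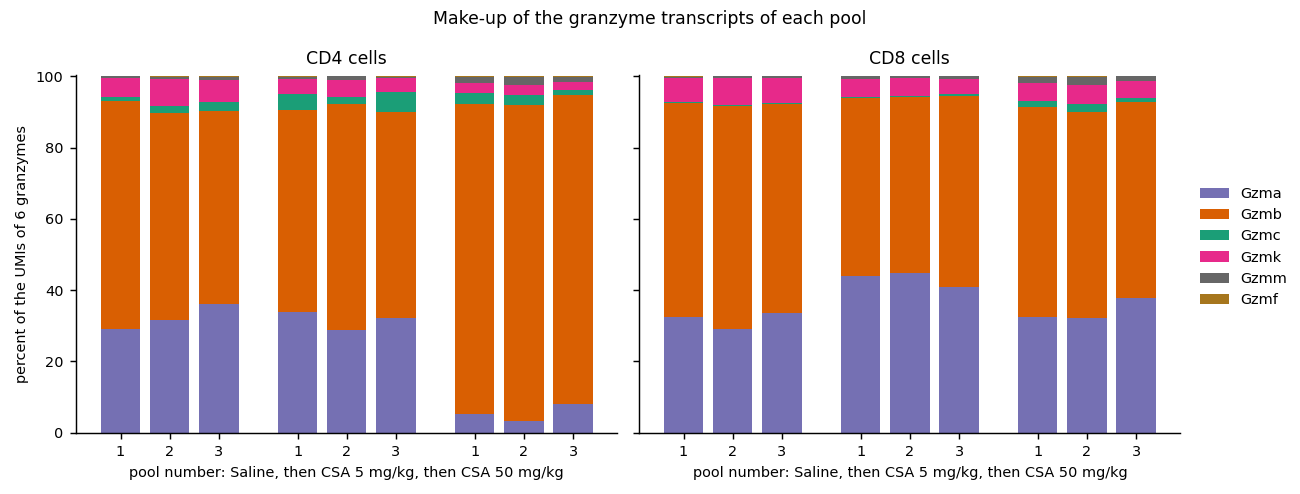
Share of each granzyme in the UMIs of the 6 granzymes, 1 bar per pool, for CD4+ (left) and CD8+ T cells (right) in the order saline, 5 mg/kg and 50 mg/kg. *Gzma* (violet) shrinks to 5.45% ± 2.404 (SD, n = 3) of the CD4+ granzyme UMIs at 50 mg/kg and stays at 34.2% ± 3.14 of the CD8+ ones. The CD4+ *Gzma* levels with saline and 5 mg/kg were not distinguished in CPM from those of CD4+ naive cells.

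Whether the lineages responded unequally was tested as the CD8+ minus CD4+ difference of the change, with the pool as a block. At 50 mg/kg 4 of 7 members were called, where 19.8% of all genes were. The difference was 2.31 (SE 0.16, adjusted p = 3.61e-10) for *Gzma*, -1.04 (SE 0.04, adjusted p = 1.65e-14) for *Gzmb*, 1.57 (SE 0.32, adjusted p = 7.46e-04) for *Gzmc* and 0.46 (SE 0.11, adjusted p = 0.00325) for *Gzmk* in edgeR. DESeq2 called 3 members there and not *Gzmc* (adjusted p = 0.176). *Gzmb* thus rose in CD4+ T cells relative to CD8+ T cells, where its own change was not called in edgeR. In edgeR the other 3 were relatively higher in CD8+ T cells. For *Prf1* and *Gzmm* the difference was -0.10 (SE 0.12, adjusted p = 0.655) and 0.41 (SE 0.20, adjusted p = 0.159) in edgeR and not called. At 5 mg/kg 3 of 7 members were called against 3.65% of genes, *Gzma* (0.52), *Gzmb* (-0.21) and *Gzmm* (0.95), and 1 member was left without the first pool of 5 mg/kg or without the second or the third saline pool. DESeq2 called 1 there, *Gzmb*. *Gzma* of CD4+ T cells overlapped CD4+ naive T cells with saline and 5 mg/kg, as given next.

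The naive clusters, C9 among 13 CD4+ and C7 among 9 CD8+ clusters, served as a measure of RNA from outside the cell, since naive T cells should hold no granule. Of 6 naive markers, 4 were highest in C9 and 5 in C7, with *Il7r* highest in C12 and *Tcf7* in C4 among CD4+ and *Tcf7* in C5 among CD8+ clusters. The effector clusters compared with them were C0, C1, C3, C5 and C6 of CD4+ and C0 to C4 of CD8+ T cells, and levels here are CPM with no TMM factor. In CD4+ T cells with saline, *Gzma* was at 349.5, 375 and 552 CPM in the effector clusters and at 427, 483 and 273 in the naive cluster of the same pools. With the UMIs of the 3 pools summed, the naive level was 95.6% of the effector level, and 69.97% at 5 mg/kg, and all percentages below are of such sums. The naive and effector pools overlapped in both groups. In CPM, *Gzma* of CD4+ T cells with saline or 5 mg/kg was thus not distinguished from the level of naive cells. Naive cells were shallower, with median UMIs per cell of 2035, 1941 and 1945 in the saline pools against 3192.5, 3465 and 3458.5 in effector cells. Per UMI of *Cd8b1*, the UMIs of *Gzma* were 3.22 and 5.12 in effector and 1.72 and 2.14 in naive CD4+ T cells with saline and 5 mg/kg. In all CD8+ T cells that ratio was 1.10 and 1.28. How much of the level in the deeper cells was background was not tested. At 50 mg/kg *Gzma* was at 87.2, 40.2 and 108 in effector and 0, 5.78 and 20.1 in naive cells, 10.8%, with 3 UMIs in 94 naive cells. *Gzma* thus fell further in naive than in effector CD4+ T cells, and the effector minus naive difference was 3.14 (SE 0.60, adjusted p = 4.30e-05) in edgeR's test of that difference.

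For *Gzmb* the naive level of CD4+ T cells was 72.04% of the effector level with saline, 50.3% at the lower and 6.53% at the higher dose. The effector pools held 856, 735 and 779 CPM with saline and 1386, 1097 and 1086 at 50 mg/kg, and the naive pools 603, 579.8 and 478 and 13.2, 98.3 and 90.6. The effector minus naive difference of the change was 3.54 (SE 0.28, adjusted p = 5.46e-33) in edgeR, and *Gzma* and *Gzmb* were the 2 members called of 6 tested where 1.85% of genes were called. *Prf1* was no lower in naive than in effector CD4+ T cells, with the naive level at 152%, 192% and 224% of the effector level with saline, 5 and 50 mg/kg, on 17, 19 and 12 naive UMIs. The CD4+ *Prf1* level was thus not distinguished in CPM from that of naive cells either. *Gzmk* of CD4+ naive cells was at 83.9% of the effector level with saline, and *Gzmm* at 79.6% with saline and 10.8% at 50 mg/kg, on 2 and 1 naive UMIs and none at 5 mg/kg. *Cd8b1* in the CD4+ naive cluster was at 253 ± 52.4 CPM with saline, 140.1 ± 13.5 at the lower and 27.4 ± 13.6 at the higher dose (SD, n = 3).

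For *Gzma*, *Gzmb*, *Gzmk* and *Prf1* in CD8+ T cells the effector clusters stood well above the naive cluster of their pools. *Prf1* was at 354, 371 and 333 CPM in effector and 43.2, 47.3 and 46.8 in naive cells with saline, and at 117, 126 and 119 and 47.7, 33.95 and 38.6 at 50 mg/kg. *Gzmb* was at 3308, 2833 and 2967 and 403, 385 and 741 with saline, and *Gzmk* at 367, 352 and 349.9 and 7.198, 20.3 and 38.99. Naive levels were 21.04%, 16.6%, 6.09% and 12.97% of the effector levels for *Gzma*, *Gzmb*, *Gzmk* and *Prf1* with saline, but for *Gzmm* 98.7% with saline, 91.7% at the lower and 52.5% at the higher dose, on 7, 20 and 29 naive UMIs. The level of *Gzmm* in effector CD8+ T cells with saline or 5 mg/kg was thus not distinguished from that of CD8+ naive cells. CD4+ naive cells of the same captures held *Gzmm* at 7.12 ± 6.45, 0 and 3.35 ± 5.81 CPM with saline, 5 and 50 mg/kg (SD, n = 3). CD8+ naive cells held it at 17.6 ± 15.98, 26.3 ± 3.94 and 31.4 ± 9.96 CPM. Whether the *Gzmm* of CD8+ naive cells came from outside the cell was not tested. The effector minus naive difference of the change at 50 mg/kg was called for *Gzma* (0.67, or 0.24 and not called with scaling by total UMIs) and *Gzmb* (1.16), 2 of 6 members tested where 10.5% of genes were called, and not for *Prf1*, at -0.90 (SE 0.40, adjusted p = 0.159) in edgeR. The *Gzma* difference rested on single pools, at 0.17 (adjusted p = 0.637) without the first pool of 50 mg/kg, 0.31 (adjusted p = 0.538) without the third, 0.21 (adjusted p = 0.802) without the third saline pool and 2.33 (adjusted p = 1.78e-22) without the second of 50 mg/kg in edgeR. A few cells held much of the naive *Gzma*. In 1 pool of 50 mg/kg, 98 of its 167 UMIs came from 1 of 59 cells, and without the 3 highest cells of each pool the naive level of the 50 mg/kg pools was 0, 81.1 and 47.6 CPM. The ratio of *Gzma* to *Gzmb* UMIs with saline was 0.739 in CD4+ naive, 0.668 in CD8+ naive and 0.531 in all cells of the capture. At 5 mg/kg it was 0.729, 0.521 and 0.776, and at 50 mg/kg 0.111, 1.16 and 0.451, where the CD8+ naive value rests on 212 *Gzma* UMIs, 98 of them from the 1 cell above, and the CD4+ naive value on 3.

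**Figure D4:**
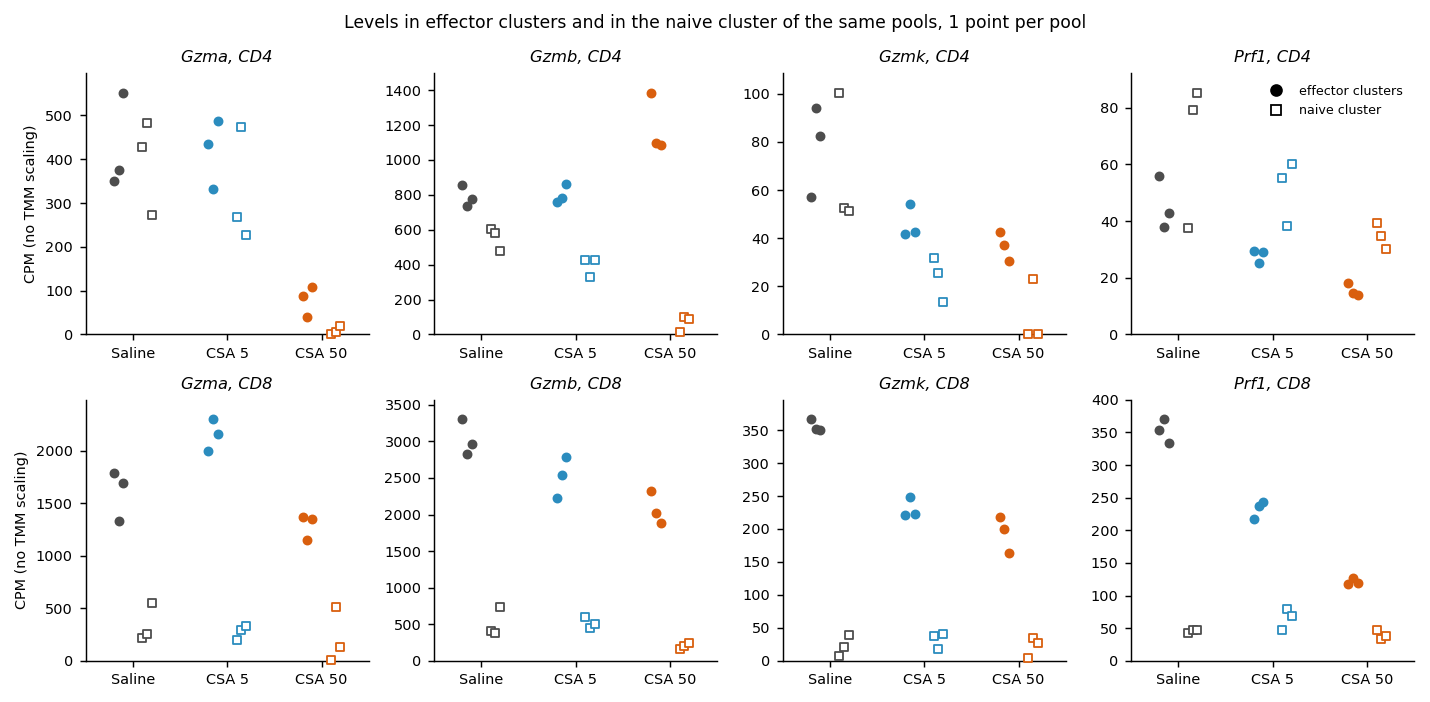
CPM of *Gzma*, *Gzmb*, *Gzmk* and *Prf1* (columns) in the effector clusters (filled circles) and in the naive cluster (open squares) of the same pools, for CD4+ (top) and CD8+ T cells (bottom). Effector and naive pools overlap for *Gzma* in CD4+ T cells with saline (273 to 552 over both) and part at 50 mg/kg, whereas in CD8+ T cells the 2 classes never overlap.

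Across the deposited clusters of CD8+ T cells, *Gzmb* with saline was at 3991 ± 282 CPM (SD, n = 3, no TMM factor here and below) in C4 and 2934 ± 239 in C3, both cycling clusters by the study, down to 553 ± 80.6 in C5, the cluster it describes as Tfh-like and precursor-like, and 509.8 ± 200.3 in naive C7. *Prf1* was at 647 ± 198 in C8 and 429.7 ± 34.7 in C4, ranges that overlapped, and at 77.5 ± 28.8 and 45.8 ± 2.25 in C5 and C7. *Gzmk* had another order, with 468 ± 31.001 in C3, 418 ± 18.5 in C0 and 22.2 ± 15.98 in C7, and of its 8 pairs of neighbours in that order 5 did not overlap. *Gzma* was at 2008 ± 466 in C3 and 326 ± 46.4 in C5, with 7 of 8 neighbours overlapping. Among CD4+ clusters with saline the cluster means of *Gzma* ran from 212 to 502 CPM and all 10 pairs of neighbours in that order overlapped, although clusters further apart in it, such as C0 and C7, did not. For *Gzmb* with saline the means ran from 332 in C2 to 865 in C5, while at 50 mg/kg 5 of its 11 pairs of neighbours were apart, from 67.3 ± 47.1 in naive C9 to 1764 ± 290.4 in C7 and 2047 ± 1643 (2 pools) in C6.

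Tests within clusters, of 50 mg/kg against saline, compare cells assigned to the same cluster. Whether treatment changed the cluster to which a cell was assigned was not tested. The members called of those tested were 4 of 6, 4 of 6, 3 of 4, 3 of 6, 4 of 6, 3 of 4 and 2 of 2 in CD4+ C0, C1, C2, C3, C5, C7 and C9, where the share of all genes called was 54.8% in C0, 20.3% in C1, 22.5% in C2, 17.7% in C3, 53.9% in C5, 36.6% in C7 and 26.7% in C9. In CD8+ C0, C1, C2, C3, C5, C7 and C8 they were 3 of 5, 5 of 6, 5 of 6, 4 of 6, 3 of 5, 1 of 3 and 4 of 6, where the shares were 58.4% in C0, 26.9% in C1, 54.8% in C2, 58.9% in C3, 34.7% in C5, 3.52% in C7 and 39.5% in C8. *Prf1* fell in 5 of 7 CD8+ clusters, with log2 changes of -2.08 (SE 0.22, adjusted p = 3.06e-08) in C8, -1.05 (SE 0.07, adjusted p = 8.78e-12) in C2 and -0.69 (SE 0.09, adjusted p = 3.15e-09) in C0 in edgeR, and it was not called in C5 or naive C7. *Gzmm* rose in all 6 CD8+ clusters where it could be tested, from 1.31 (SE 0.25, adjusted p = 1.02e-04) in C1 to 3.27 (SE 0.16, adjusted p = 2.04e-28) in C0, where its level went from 23.8 ± 6.74 to 157 ± 13.8 CPM. *Gzmc* rose in the 4 CD8+ clusters with enough counts, and in C8 it went from 2.17 ± 3.75 to 321 ± 240.5 CPM, a log2 change of 7.40 (SE 0.77, adjusted p = 2.14e-08) in edgeR against a saline level near 0. *Gzmk* fell in C1, C2 and C3 of CD8+ T cells, and in C0 its change of 0.17 became -0.39 with scaling by total UMIs.

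*Gzma* fell in all 7 CD4+ clusters tested, with log2 changes from -1.47 (SE 0.23, adjusted p = 3.70e-06) in C5 to -5.34 (SE 0.47, adjusted p = 7.82e-17) in naive C9 in edgeR. *Gzmb* went both ways among CD4+ clusters. It rose in C0 (1.27), C3 (1.36), C5 (0.97) and, by 2.58 (SE 0.18, adjusted p = 5.00e-11) in edgeR, in C7, where its level went from 372 ± 96.999 to 1764 ± 290.4 CPM. It fell in C1 (-0.37), C2 (-1.54) and naive C9 (-2.79). C7 was also the only CD4+ cluster with a called change of *Gzmc*, 3.02 (SE 0.67, adjusted p = 9.84e-04) in edgeR, from 25.1 ± 21.3 to 158 ± 120.2 CPM. With saline C7 had held no more *Gzma* or *Gzmb* than the naive cluster, at 212 ± 49.3 and 372 ± 96.999 CPM against 394 ± 109 and 554 ± 66.5. Among CD8+ clusters *Gzmb* rose in C2, C5 and C8 and fell in naive C7 (-1.32), and the rise in C2 (0.35) became -0.015 with scaling by total UMIs. *Gzma* rose in C0 (0.64, or 0.07 and not called with scaling by total UMIs) and C5 (1.03, or 0.57 and not called) and fell in C1 (-0.59). The rise in C5 rested on 1 pool, and without the third pool of 50 mg/kg the change was -0.25 (adjusted p = 0.531) in edgeR.

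**Figure D5:**
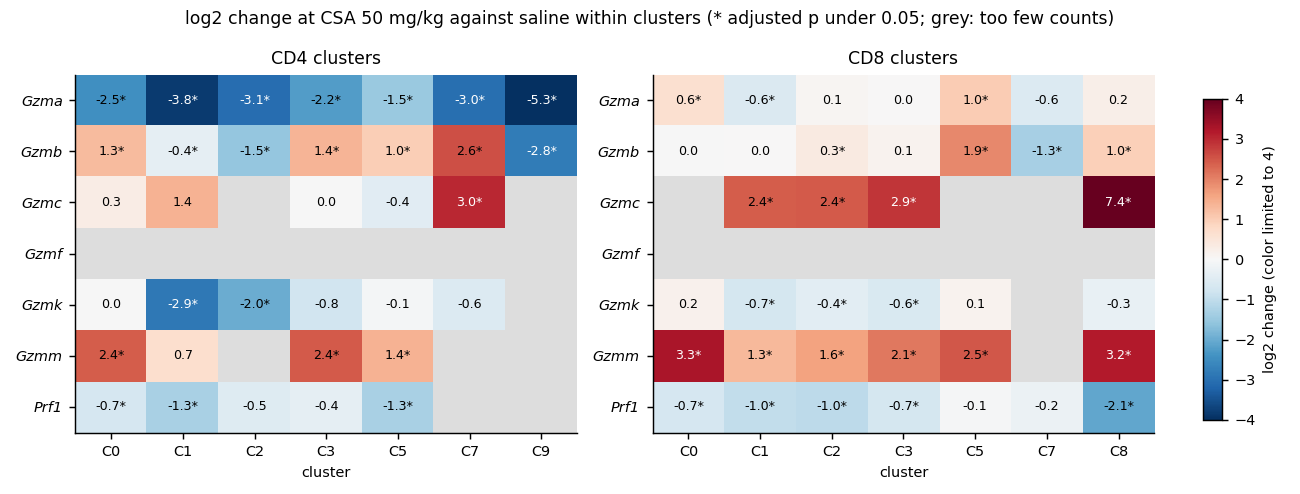
Log2 change at 50 mg/kg against saline within each cluster (columns) for the 7 members (rows), CD4+ left and CD8+ right, with a star at an adjusted p under 0.05 and grey where counts were too few. The *Gzma* row is blue in every CD4+ cluster tested, from -1.47 to -5.34, and the *Gzmm* row is red in every CD8+ cluster tested, from 1.31 to 3.27.

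The share of cells with at least 1 UMI was compared after each cell had been thinned to 1000 UMIs, with 8 shallower CD4+ cells of 5 mg/kg and 11 of 50 mg/kg left out, by an exact two-sided Jonckheere-Terpstra permutation test for a trend over saline, 5 and 50 mg/kg. Its smallest possible p is 0.00119, and p-values were adjusted over 14 tests, of which 8 were called. Of CD8+ T cells, *Prf1* was seen in 24.7% ± 1.62 with saline, 15.4% ± 1.44 at the lower and 10.9% ± 1.05 at the higher dose (SD, n = 3, adjusted p = 0.00278, exact permutation test). The naive CD8+ cells held it in 2.61% (0.541% to 7.43%), 4.49% (1.82% to 9.03%) and 2.48% (0.681% to 6.24%) (exact 95% intervals, which cover counting error only). *Gzmk* of CD8+ T cells was seen in 24.2% ± 0.7205 with saline, 16.8% ± 0.794 at the lower and 14.6% ± 0.917 at the higher dose (adjusted p = 0.00278, exact permutation test), with 1.74%, 0.641% and 1.86% in naive cells. *Gzmm* and *Gzmc* of CD8+ T cells rose, with 1.64% ± 0.467 with saline, 2.53% ± 0.686 at the lower and 6.11% ± 1.94 at the higher dose for *Gzmm* (adjusted p = 0.00714, exact permutation test) and 0.836% ± 0.249 with saline, 1.54% ± 0.117 at the lower and 2.99% ± 0.387 at the higher dose for *Gzmc* (adjusted p = 0.00278, exact permutation test). Thinned to 2000 UMIs the shares of *Gzmc* were 2.06%, 2.03% and 4.42% in the same order and not called (adjusted p = 0.0583, exact permutation test). *Gzma* in CD4+ T cells was seen in 27.5% ± 0.554 with saline, 22.9% ± 1.67 at the lower and 3.73% ± 0.992 at the higher dose (adjusted p = 0.00278, exact permutation test), but CD4+ naive cells had it in 37.3%, 26.7% and 2.13%, so the first 2 values were not above those of naive cells. Naive cells were shallower before thinning, as given above, so no background was read from them for the deeper cells. For *Gzmb* the share was 42.99% ± 1.41 with saline, 40.7% ± 0.0144 at the lower and 35.7% ± 1.22 at the higher dose in CD4+ T cells (adjusted p = 0.00278, exact permutation test) and 73.6% ± 1.94 with saline, 67.5% ± 4.01 at the lower and 65.5% ± 2.33 at the higher dose in CD8+ T cells (adjusted p = 0.0375, exact permutation test), with CD4+ naive cells at 51.8%, 33.3% and 6.38%. The CD8+ call was lost without the second or the third pool of 50 mg/kg, without the third of 5 mg/kg and without each of the saline pools (adjusted p from 0.05 to 0.106, exact permutation test), and in cells that were not thinned (adjusted p = 0.0583, exact permutation test). For CD4+ T cells the *Gzmb* share went against its rise in scaled CPM, and no order was read from it. *Gzma* of CD8+ T cells was seen in 48.9% ± 3.12, 49.1% ± 3.16 and 36.7% ± 1.44 in the same order, not called (adjusted p = 0.0648, exact permutation test). Thinned to 2000 UMIs its shares were 64.5%, 60.01% and 45.9% and called (adjusted p = 0.00208, exact permutation test). The lower share at 50 mg/kg went against the rise of *Gzma* in scaled CPM in CD8+ T cells.

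Members were also seen together in the same thinned cell. Among CD8+ effector cells, 23.2% ± 1.94 held both *Gzmb* and *Prf1* (SD, n = 3) with saline, 14.6% ± 1.36 at the lower and 8.48% ± 0.834 at the higher dose, groups that did not overlap. Among those with a *Gzmb* UMI, 29.2% ± 2.72 also had *Prf1* with saline and 12.3% ± 0.824 at 50 mg/kg, and among those without one 20.3% ± 2.93 and 10.8% ± 4.46. Cells with no UMI of any member made up 7.83% ± 1.62, 9.76% ± 1.98 and 16.8% ± 0.255 of CD8+ and 35.1% ± 0.808, 38.1% ± 1.63 and 54.4% ± 1.99 of CD4+ effector cells. At this depth a cell with no UMI may still hold the transcript.

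Other genes of the granule pathway, a list of 27 for granule proteins, their transport and release, their inhibitors and the death ligands, had 23 members tested in each lineage. At 50 mg/kg 5 were higher and 11 lower in CD4+ T cells, with a median log2 change of -0.10 against -0.01 for all genes, and 8 were higher and 12 lower in CD8+ T cells, with -0.26 against 0.00. All genes were called in 70.5% and 74.0% of cases in CD4+ and CD8+ T cells, against 16 and 20 of these 23 genes. With scaling by total UMIs the counts were 1 higher and 17 lower in CD4+ and 2 and 17 in CD8+ T cells. At 5 mg/kg, with TMM, it was 6 and 5 in CD4+ and 10 and 9 in CD8+ T cells, where 51.7% and 60.2% of all genes were called. Among those with a mean of at least 20 CPM, the genes that rose most were *Serpinb6a*, an intracellular serpin, by 1.19 (SE 0.08, adjusted p = 1.09e-11) in CD4+ and 0.88 (SE 0.08, adjusted p = 9.50e-09) in CD8+ T cells in edgeR, and *Srgn*, the proteoglycan core that binds granzymes in the granule, by 0.45 (SE 0.05, adjusted p = 4.62e-08) and 0.87 (SE 0.04, adjusted p = 5.63e-13). *Vamp8*, a vesicle SNARE, was the third in CD4+ T cells, at 0.45 (SE 0.04, adjusted p = 1.46e-08), and *Nkg7*, a granule membrane protein, the third in CD8+ T cells, at 0.52 (SE 0.03, adjusted p = 1.24e-10) in edgeR. With scaling by total UMIs, *Srgn* was at 0.01 and *Vamp8* at 0.01 in CD4+ and *Nkg7* at -0.01 in CD8+ T cells, none called, while *Serpinb6a* was at 0.75 and 0.35. *Lyst*, the lysosomal trafficking regulator lost in Chediak-Higashi syndrome, fell most in both lineages among the genes of at least 20 CPM, at -1.96 (SE 0.09, adjusted p = 6.42e-14) and -2.46 (SE 0.09, adjusted p = 4.48e-14) in edgeR. It was followed, among the same genes, in CD4+ T cells by *Tnfsf10*, the death ligand TRAIL, at -1.92 (SE 0.13, adjusted p = 1.61e-11), and *Rab27a*, which docks granules at the membrane, at -1.04 (SE 0.07, adjusted p = 2.62e-11) in edgeR. In CD8+ T cells it was followed by *Igf2r*, the mannose 6-phosphate receptor that granzymes use, at -1.40 (SE 0.06, adjusted p = 7.36e-13), and *Serpinb9*, the inhibitor of granzyme B, at -1.24 (SE 0.06, adjusted p = 1.38e-12) in edgeR.

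Of 12 transcription factors known to act on granzyme or perforin genes, 3 were higher and 7 lower in CD4+ and 2 and 8 in CD8+ T cells at 50 mg/kg, where 70.5% and 74.0% of all genes were called, with median log2 changes of -0.81 and -0.89 against -0.01 and 0.00 for all genes. With scaling by total UMIs 2 were higher and 9 lower in CD4+ and 0 and 9 in CD8+ T cells. At 5 mg/kg it was 1 and 7 in CD4+ and 1 and 9 in CD8+ T cells, where 51.7% and 60.2% of all genes were called. *Tbx21*, which encodes T-bet, was at 0.02 (SE 0.06, adjusted p = 0.762) in CD4+ and -0.10 (SE 0.06, adjusted p = 0.168) in CD8+ T cells at 50 mg/kg in edgeR, neither called, but at -0.42 and -0.63, both called, with scaling by total UMIs. *Eomes*, the other T-box factor of killer cells, rose by 1.75 (SE 0.14, adjusted p = 3.80e-10) and 0.55 (SE 0.07, adjusted p = 1.23e-06) at 50 mg/kg but was at -0.84 (SE 0.21, adjusted p = 0.00224) and -0.33 (SE 0.08, adjusted p = 0.0018) at 5 mg/kg in edgeR, and its rise in CD8+ T cells was 0.01 with scaling by total UMIs. *Runx3* was at 0.20 (SE 0.05, adjusted p = 0.00168) in CD4+, which became -0.24 with scaling by total UMIs, and -0.49 (SE 0.05, adjusted p = 3.11e-08) in CD8+ T cells, and *Prdm1*, which encodes Blimp-1, at -0.70 (SE 0.17, adjusted p = 0.00101) and -1.28 (SE 0.09, adjusted p = 2.60e-10) at 50 mg/kg in edgeR.

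Over 62 sums of cluster and group, which share captures and depth, the genes whose log2(CPM + 1) was most like *Gzma* by Pearson's r were *Gzmk* (0.84), *Prf1* (0.82), *Cd8b1* (0.81), *Plek* (0.80) and *Cd160* (0.80). Those most like *Gzmk* were *Prf1* (0.85), *Gzma* (0.84), *Plek* (0.78), *Efhd2* (0.77) and *Gzmb* (0.75), so that *Gzma* and *Gzmk* were on each other's list and *Prf1* on both. For *Gzmb* they included *Havcr2* (0.82), which encodes the inhibitory receptor TIM-3, *Txndc5* (0.80), *Chsy1* (0.78) and *Tmem163* (0.78). The r of *Gzmb* with *Gzma* was 0.63, and *Gzmc* was far from *Gzma* (0.17) and *Prf1* (0.18). These sums mix CD4+ and CD8+ clusters, which differ in level, as with *Gzma* at 375 ± 76.4 CPM in CD4+ and 1453 ± 213 in CD8+ T cells with saline (SD, n = 3). No r was computed within a lineage.

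TEa cells numbered 123, 130 and 27 with saline, 5 and 50 mg/kg. Their *Gzma* was at 289, 506 and 21.8 CPM and their *Gzmb* at 620.5, 749 and 814 CPM, sums over few cells with no replicate error. CD8+ T cells whose clonotype was found more than once held *Prf1* at 427, 278 and 118 CPM, and those whose clonotype was found once at 266, 179 and 116. For *Gzmb* the values were 3448, 2694 and 2359 against 2352, 2099 and 1939 CPM, higher in the expanded cells of each group, and these differences were not tested here.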

How the data were processed

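Splenic CD4+ and CD8+ T cells were profiled by 10x 5′ single-cell RNA sequencing in 3 captures, 1 per treatment, with 3 hashtagged pools of 2 mice each. The authors deposited UMI counts per gene and cell, as whole numbers and not normalized, made with Cell Ranger on mm10 and Seurat 3.0.0 per the labels, together with tables of cells that give hashtag, cluster, clonotype and the fraction of mitochondrial UMIs, which the authors computed per cell and which entered no test. Marks for doublets and likely dead cells are set in none of the deposited cells, which therefore appear to have been filtered on them, and no doublet caller was run. How these marks were made and how ambient RNA was handled was not given in the sources used here. The CD8+ clusters, numbered 1 to 9 in the table, were given the names C0 to C8 here in the order of the deposited sub-cluster labels, with 8 and 9 as C0 and C1, so a difference from the study may come from these rebuilt names. Counts were summed per pool over cells not marked TEa and tested with edgeR 4.0.16 (quasi-likelihood, TMM, filterByExpr, Benjamini-Hochberg over all genes tested, threshold 0.05) in R 4.3.3. Shares of cells with a UMI, thinned to 1000 UMIs, were tested per pool with an exact permutation test for a trend, and thinning to 2000 UMIs or none was the alternative. Interaction fits took the pool as a block, and clusters were tested where pools held at least 10 of their cells. The pools came from different mice, and p-values measure the spread between 3 pools of 1 capture. The scripts were tested on simulated data. Upstream sequence came from RefSeq (GRCm38.p6). Alternatives were DESeq2 1.42.0, scaling by total UMIs, no filter, only the groups compared, a replicate block, TEa cells included, cells of at least 2000 UMIs, cells outside the cycling clusters, fixed cluster shares and each pool left out, and, chosen after seeing the data, leaving out cells with 2 strong hashtags. All 7 members were named, with 3 rises and 3 falls per lineage among other granule genes of at least 20 CPM, 4 transcription factors, and the 5 genes most like *Gzma*, *Gzmb* and *Gzmk*, of which 1 is not reported here. Members and lists were chosen with earlier results of these data known. UMIs were counted at the 5′ end, so levels are not compared between genes.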

Additional observations from a re-analysis of the deposited data

Results flagged for a closer look

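The change at 5 mg/kg differed between the lineages in edgeR's interaction test for *Gzma* (0.52, CD8+ minus CD4+ on the log2 scale), *Gzmb* (-0.21) and *Gzmm* (0.95). DESeq2 called 1 member there, and leaving out each pool gave 1 to 3. At 50 mg/kg the change differed between the lineages for *Gzma* (2.31), *Gzmb* (-1.04), *Gzmc* (1.57, but not called in DESeq2, adjusted p = 0.176) and *Gzmk* (0.46). The change at 50 mg/kg differed between effector and naive clusters of CD4+ T cells for *Gzma* (3.14) and *Gzmb* (3.54). It differed between effector and naive clusters of CD8+ T cells for *Gzma* (0.67) and *Gzmb* (1.16). With each pool left out in turn, that *Gzma* difference ran from 0.17 to 2.33, with an adjusted p of up to 0.802 in edgeR. DESeq2 called 1 member in that comparison. Groups of 3 pools were too small to test for a pool that stands apart.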

How the results depend on the processing

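Of the counts of members called, DESeq2 gave 1 in place of 3 for the CD8+ minus CD4+ difference at 5 mg/kg and 1 in place of 2 for the CD8+ effector minus naive difference, and cells outside the cycling clusters gave 1 in place of 3 in CD4+ T cells at 5 mg/kg. Leaving out each pool gave 1 to 3 and 1 to 2 for the first 2 of these, and 45 to 52 member calls within clusters, where 48 had been made. With scaling by total UMIs the change turned for *Gzmb* at 5 mg/kg in CD4+ (-0.10) and CD8+ (-0.35), and at 50 mg/kg in CD8+ T cells for *Gzma* (-0.26) and *Gzmb* (-0.43), *Gzmk* in C0 (-0.39), *Gzma* and *Gzmb* in C2 (-0.27 and -0.015) and in C3 (-0.43 and -0.33). The mean of *Gzma* in CD4+ T cells at 5 mg/kg was 338 CPM with no TMM factor against 375 with saline, so its direction turned as well. With cluster shares fixed, *Gzmk* at 5 mg/kg was at 0.11 in CD4+ and 0.20 in CD8+ T cells and *Prf1* at 0.23 in CD8+ T cells. Leaving out each pool moved *Gzma* in CD8+ C5 between -0.25, without the third pool of 50 mg/kg, and 1.39. The cause was not tested. The hashtag numbers did not pair the pools (r from -0.08 to 0.06 between pools of the same number), and with the number as a replicate block 3, 6 and 5 members were called in CD4+ and 5, 5 and 4 in CD8+ T cells at 5 mg/kg, at 50 mg/kg and between the doses. Few UMIs limit *Gzmf*, *Gzmm* in CD4+ T cells and every naive level.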
